A study of Mus musculus with 20 samples.

Results

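The 10 genes Slc4a1, Slc26a4, Slc4a9, Foxi1, Aqp6, Rhcg, Rhbg, Hepacam2, Clnk and Oxgr1 are genes of the intercalated cells of the kidney collecting duct. They were picked by name as anion exchangers, ammonia transporters and markers of these cells, and not by their values. They are 10 of the 54532 genes in a table of read counts from mouse kidney, and 9 of them were among the 15354 genes that passed a filter on low counts. Clnk did not pass.

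The table comes from bulk RNA sequencing in the Cre-less AAV model, with 10 tumors and 10 normal kidneys. In this model a virus that carries sgRNAs against Vhl, Pbrm1, Keap1 and Tsc1 was injected into the kidneys of C57BL/6 mice of the genotype LSL-Cas9/+; Pax8 Cre/+, in which Cas9 and GFP are made only where Pax8 has been expressed. Pax8 is expressed in tubules and in collecting ducts, so intercalated cells fall within the reach of this Cre. The normal kidney samples came from the same mice, so both groups share the Cas9 and Cre alleles, while the sources used here do not say whether they were taken from the injected kidney. Male and female mice were injected at 8 to 12 weeks of age, and ages at collection were not used here. Each group is 10 libraries, numbered 1 to 10, with 14737516 to 26679704 counts in a normal kidney and 18447394 to 24902973 in a tumor. At these depths 3 counts are worth 0.11 to 0.189 CPM (counts scaled to a library of 1e+06 counts) in a normal kidney and 0.122 to 0.171 CPM in a tumor, and counting intervals cover counting error only.

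Intercalated cells are the acid-base cells of the connecting tubule and collecting duct, where they lie scattered among the principal cells that carry water and sodium. Type A cells pump protons into the urine and return bicarbonate to the blood through the exchanger encoded by Slc4a1, while type B cells secrete bicarbonate through pendrin, the product of Slc26a4. Both types arise under the control of the forkhead transcription factor Foxi1 and carry many copies of a vacuolar proton pump.

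All 10 genes were detected in each of the 10 normal kidneys. Between genes, levels were compared as CPM per kilobase of the gene length given in the table. The order of the medians was Rhcg (46.0), Aqp6 (30.9), Slc26a4 (29.2), Slc4a9 (22.9), Foxi1 (12.8), Oxgr1 (11.7), Slc4a1 (8.87), Rhbg (4.02), Hepacam2 (2.58) and Clnk (0.519 CPM per kilobase). Of the 9 neighbouring pairs in this order, 2 differed in an exact sign-flip permutation test within kidneys (two-sided, n = 10, adjusted over the 9 pairs). Slc4a9 lay above Foxi1 in 10 of 10 kidneys, by 0.75 on the log2 scale (adjusted p = 0.00879, exact). Hepacam2 lay above Clnk in 10 of 10, by 2.83 (adjusted p = 0.00879, exact). The other 7 pairs did not pass, with adjusted p between 0.111 and 0.879 in the same exact permutation test. The order among the ammonia transporter Rhcg, the vesicle channel Aqp6 and the type B exchangers Slc26a4 and Slc4a9 was therefore not resolved by these kidneys.

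The tumors held almost none of these transcripts. When edgeR's quasi-likelihood method was applied and p-values were adjusted by Benjamini-Hochberg over all genes tested, 9 of the 9 tested genes were lower in tumors, against a background of 23.8% of all genes tested. Since 8 of the 9 passed the filter only through the normal kidneys, this count describes these 9 genes and is no evidence about intercalated cell genes in general. Their median log2 fold change was -7.61, beside a median of -0.02 over all genes tested. The study's limits for a changed gene (at least 1 on the log2 scale with p under 0.001 before adjustment) were met by the same 9 genes, and 10.2% of all genes tested met them as lower genes. A log2 fold change under -6 was found for 8 of the 9, beside 0.899% of all genes tested. Every tumor lay below every normal kidney for 8 of the 10 genes, beside 4.74% of all genes tested, and the exceptions were Slc4a1 and Clnk. In a permutation test of the difference in mean log2 CPM (two-sided, unadjusted, 100000 resamples), p was 2.0e-05 for 8 genes, the smallest value these resamples can give, and 4.0e-05 for Slc4a1 and Clnk. In bulk tissue, fewer intercalated cells and less of each RNA per cell cannot be told apart.

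**Figure D1:**
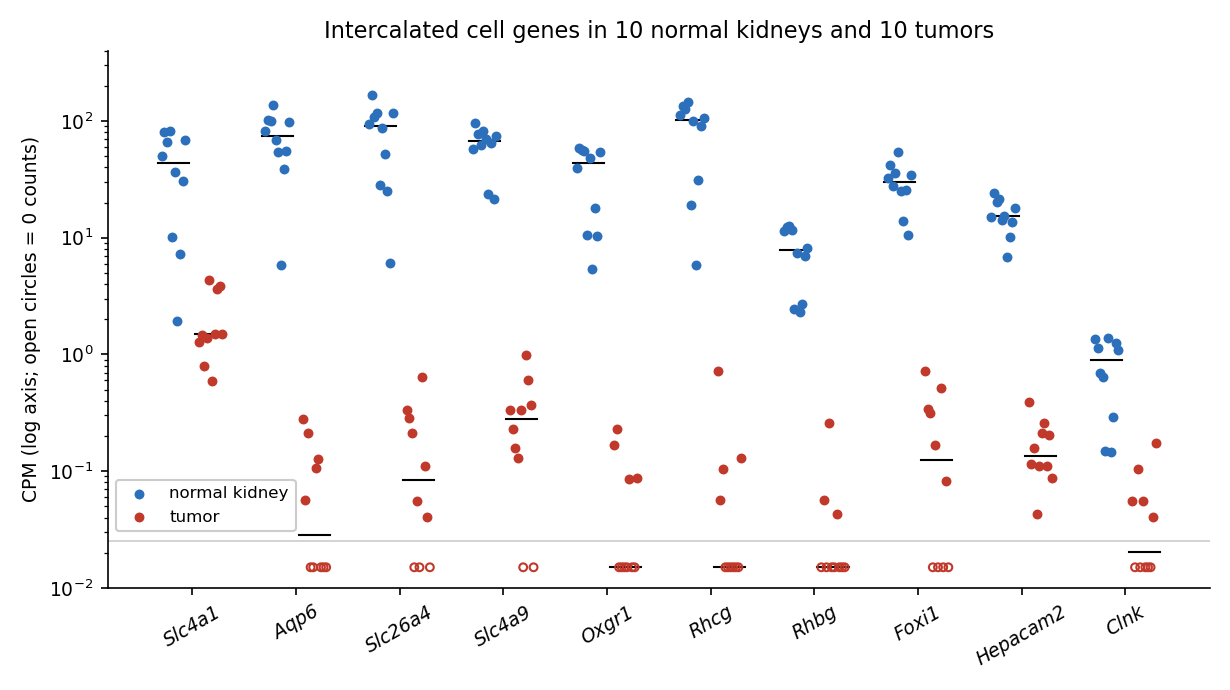
Level of each gene in every library, in CPM on a log axis, with normal kidneys in blue and tumors in red. Each point is 1 library, the black line is the median of 10, and open circles below the grey line are libraries with 0 counts. The groups are apart for all genes but Slc4a1 and Clnk, and Slc4a1 is the gene with the highest tumor levels.

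The type A genes were Slc4a1 and Aqp6. Slc4a1 (ENSMUSG00000006574, chr11:102348824-102366203 in mm10, minus strand) encodes anion exchanger 1, which sits in the basolateral membrane of type A cells and also in the membrane of red blood cells. Its level was 1.94 CPM in the lowest normal kidney, 43.4 in the median and 82.2 in the highest, and 0.590, 1.49 and 4.37 CPM in tumors. The groups overlapped only through normal kidney 7, the lowest of its group, and 7 of the 10 tumors were below that kidney. The log2 fold change was -4.41 (SE 0.58, adjusted p = 2.4e-06), the smallest fall among the 9 genes.

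Aqp6 (ENSMUSG00000043144, chr15:99601400-99605477, plus strand) encodes an anion-permeable aquaporin of the intracellular vesicles of type A cells. It had 5.81 CPM in the lowest normal kidney, a median of 74.9 and a highest level of 137. In tumors no library exceeded 0.280 CPM, the median was 0.0285, and 5 tumors had 0 counts. The groups were far apart, with a log2 fold change of -9.84 (SE 0.621, adjusted p = 7.7e-11), close to that of Rhcg, and which of these fell more changed with the alternatives. Over all tumors together 15 counts were found, against 14148 in normal kidneys, or 0.103% of the normal level (exact 95% counting interval 0.0575 to 0.169).

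The type B genes were Slc26a4, Slc4a9 and Oxgr1. Slc26a4 (ENSMUSG00000020651, chr12:31519827-31559969, minus strand), which encodes the chloride-bicarbonate exchanger pendrin of the apical membrane, ranged in normal kidneys from 6.10 CPM through a median of 90.6 to 166. Tumors had 0 to 0.640 CPM with a median of 0.0830, and 3 had no count. The log2 fold change was -8.85 (SE 0.691, adjusted p = 1.4e-09), with no overlap, and -9.47 without tumor 7.

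Slc4a9 (ENSMUSG00000024485), which encodes an anion exchanger of the basolateral membrane of type B cells, had 21.4, 67.0 and 96.2 CPM as lowest, median and highest levels in normal kidneys, a spread of 4.49-fold where Slc4a1 spread over 42.5-fold. Its tumor levels ran from 0 through 0.280 to 0.982 CPM. That left the groups apart, with a log2 fold change of -7.61 (SE 0.492, adjusted p = 9.7e-11). Oxgr1 (ENSMUSG00000044819, chr14:120019585-120042435, minus strand) encodes the receptor for the citric acid cycle intermediate alpha-ketoglutarate on type B cells. It had 5.37, 43.8 and 58.7 CPM in normal kidneys, and 6 of the 10 tumors had 0 counts, with a highest level of 0.228 CPM. The log2 fold change of Oxgr1 was -9.20 (SE 0.671, adjusted p = 5.3e-10).

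The ammonia transporters Rhcg and Rhbg are relatives of the Rhesus blood group proteins, and Rhcg lies in the apical and Rhbg in the basolateral membrane. Both are known from intercalated cells and, at lower levels, from neighbouring principal cells. Rhcg (ENSMUSG00000030549, chr7:79593363-79617657, minus strand) had 5.84, 103 and 146 CPM in normal kidneys. It had 0 counts in 6 tumors, and 13 of its 19 tumor counts came from tumor 1, at 0.728 CPM. Its log2 fold change was -9.75 (SE 0.769, adjusted p = 1.6e-09), and it reached -11.14 without tumor 1. On the same strand Rhcg overlaps the unconfirmed locus Gm45170, which averaged 1.92 CPM in normal kidneys, and how reads on both were counted is not stated.

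Rhbg (ENSMUSG00000104445, chr3:88242874-88254709, minus strand) was a less abundant transcript, with 2.30, 7.79 and 12.5 CPM in normal kidneys. In tumors 7 libraries had 0 counts and 6 of the 8 counts in all came from tumor 4, at 0.258 CPM. The groups did not overlap, and the log2 fold change was -7.44 (SE 0.647, adjusted p = 6.5e-09), or -8.80 without tumor 4.

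Foxi1 (ENSMUSG00000047861, chr11:34204338-34208089, minus strand), the transcription factor on which intercalated cell identity depends, had 10.5 CPM in the lowest normal kidney, a median of 30.1 and a highest level of 54.7. Tumor levels were 0, 0.124 and 0.728 CPM, and 4 tumors had no count. The log2 fold change was -7.13 (SE 0.576, adjusted p = 2.2e-09), with no overlap. Hepacam2 (ENSMUSG00000044156, chr6:3457096-3498298, minus strand), which encodes a cell adhesion protein of the immunoglobulin family and marks both types, had 6.79, 15.2 and 24.3 CPM in normal kidneys. It was found in all 10 tumors, but at 0.0431 to 0.392 CPM, which is 1 to 7 counts per library. Its log2 fold change of -6.51 had the smallest standard error of the 9 (SE 0.322, adjusted p = 2.5e-12).

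Clnk (ENSMUSG00000039315, chr5:38706462-38876812, minus strand) encodes an adaptor protein first known from mast cells and other blood cells and is also a marker of intercalated cells. It was scarce in normal kidneys, with 0.146, 0.891 and 1.38 CPM, and tumors had 0 to 0.173 CPM with a median of 0.0204. Of the 10 tumors 9 were below every normal kidney. Clnk failed the filter, and without a filter its log2 fold change was -4.00 (SE 0.63, adjusted p = 2.6e-05 by the same edgeR test over all genes with a count). Over all libraries it had 9 counts in tumors and 149 in normal kidneys, a ratio of 5.85% (exact 95% counting interval 2.62 to 11.4). Mast cell and natural killer cell genes were read beside Clnk. Of the 8 mast cell genes 5 (Cpa3, Mcpt4, Tpsb2, Cma1 and Fcer1a) had higher means in tumors than in normal kidneys and were highest in tumor 9. Ms4a2, like Clnk, had a lower mean in tumors, at 0.0724 CPM against 0.424 CPM in normal kidneys. The protease Cpa3 had a median of 0.203 CPM in normal kidneys and 0.497 in tumors, with 5 tumors above every normal kidney, and Mcpt4 had medians of 0.144 and 0.200 CPM. The 5 genes and Ms4a2 were not tested. Of the 2 genes that were, Gata2, a factor that kidney tissue also expresses, was lower in tumors and Hdc did not pass. The summed level of the 8 mast cell genes was 12.6 to 75.9 CPM in normal kidneys and 4.07 to 47.6 in tumors. None of the 7 natural killer cell genes passed the filter. Ncr1 had a median of 0 in both groups, and Klrb1c had medians of 0.176 CPM in normal kidneys and 0.0715 in tumors. Klra8 had 2 counts over all normal kidneys and was at 0 in every tumor. The part of mast cells and natural killer cells in the Clnk level was not tested.

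Upstream sequence is shown for Foxi1 itself and for Slc26a4 and Rhcg, which stand for type B cells and for ammonia transport, because these genes fell together with a forkhead factor. The sequences are 250 bases before the gene start in RefSeq (GRCm38.p6), read 5′ to 3′ on the strand of the gene. They lie at chr11:34208090-34208339 for Foxi1, chr12:31559985-31560234 for Slc26a4 and chr7:79617658-79617907 for Rhcg, all on the minus strand. Atp6v1b1, a proton pump subunit described further on, is added because it holds a forkhead core (TGTTTA, in capitals), and it is printed at chr6:83742767-83742989 on the plus strand, without the last 27 bases that the table places inside the gene.
Foxi1: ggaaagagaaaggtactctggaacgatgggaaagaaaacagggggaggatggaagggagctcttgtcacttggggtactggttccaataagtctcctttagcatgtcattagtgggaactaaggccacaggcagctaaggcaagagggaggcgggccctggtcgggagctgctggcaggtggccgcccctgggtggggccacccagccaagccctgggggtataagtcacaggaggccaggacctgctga
Slc26a4: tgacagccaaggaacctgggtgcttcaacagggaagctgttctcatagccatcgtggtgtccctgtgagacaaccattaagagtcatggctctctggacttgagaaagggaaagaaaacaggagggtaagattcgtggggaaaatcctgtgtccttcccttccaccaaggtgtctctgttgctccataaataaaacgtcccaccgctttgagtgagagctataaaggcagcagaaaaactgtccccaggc
Rhcg: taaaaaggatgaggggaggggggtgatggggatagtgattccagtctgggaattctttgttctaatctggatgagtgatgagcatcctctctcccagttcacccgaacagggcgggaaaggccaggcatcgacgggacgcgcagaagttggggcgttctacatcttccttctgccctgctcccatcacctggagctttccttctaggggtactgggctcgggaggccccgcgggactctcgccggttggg
Atp6v1b1: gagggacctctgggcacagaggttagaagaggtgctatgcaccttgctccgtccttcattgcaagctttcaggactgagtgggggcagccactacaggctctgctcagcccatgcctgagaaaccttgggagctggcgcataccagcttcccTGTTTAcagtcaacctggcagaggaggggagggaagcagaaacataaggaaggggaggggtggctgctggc
The forkhead core was searched as TAAACA on either strand, where TGTTTA is the same core read on the other strand. It was in none of the 7 genes of the 10 that had a sequence of this kind, and in 12.0% of the 32851 promoters in the table. The match in Atp6v1b1 began 98 bases before the gene start in RefSeq, a distance that includes the 27 bases left out of the printed sequence. Atp6v0a4, Atp6v1g3 and Atp6v1c2, other pump genes of intercalated cells that were searched, had 0 matches. By the gene bounds used for the counts, all 250 bases searched for Hepacam2 and for Atp6v1c2 lie inside the gene. So do 119 of the bases searched for Clnk. A match is a description of letters, and its absence from 250 bases says nothing of Foxi1 binding.

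What was left in tumors was uneven. The counts on all 10 genes summed to between 17 in tumor 6 and 112 in tumor 9, against 3227 to 14509 in a normal kidney. At least 1 count was found for 3 of the 10 genes in tumor 6, for 4 in tumors 4 and 8, and for 9 in tumors 1 and 2. Without Slc4a1, the other 9 genes summed to 3.02 CPM in tumor 1, 2.65 in tumor 7 and 0.322 to 1.37 CPM in the other 8 tumors. Tumor 1 had the highest tumor level of Aqp6, Rhcg, Foxi1 and Hepacam2, and tumor 7 that of the type B exchangers Slc26a4 and Slc4a9. Tumor 7 also had the highest summed level of the principal cell genes (35.8 CPM) and of the urothelial genes (140.1 CPM) among tumors, and the part of such tissue in its values was not tested.

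Much of what was left was Slc4a1, which made up 29.9% to 85.9% of the counts on the 10 genes in a tumor, but 1.64% to 12.5% in a normal kidney. Over all tumors together it had 416 counts and stood at 4.91% of the normal level (exact 95% counting interval 4.44 to 5.42), while the other 8 tested genes stood at 0.103% to 1.08%. Within libraries, log2 Slc4a1 minus log2 Aqp6 averaged 3.52 (SD 1.52, n = 10) in tumors, against -1.09 (SD 0.84, n = 10) in normal kidneys, and 10 of 10 tumors were above every normal kidney. The difference between the groups was 4.61 (permutation test, p = 2.0e-05, the smallest these resamples can give), in a contrast that was chosen after the values were seen.

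**Figure D2:**
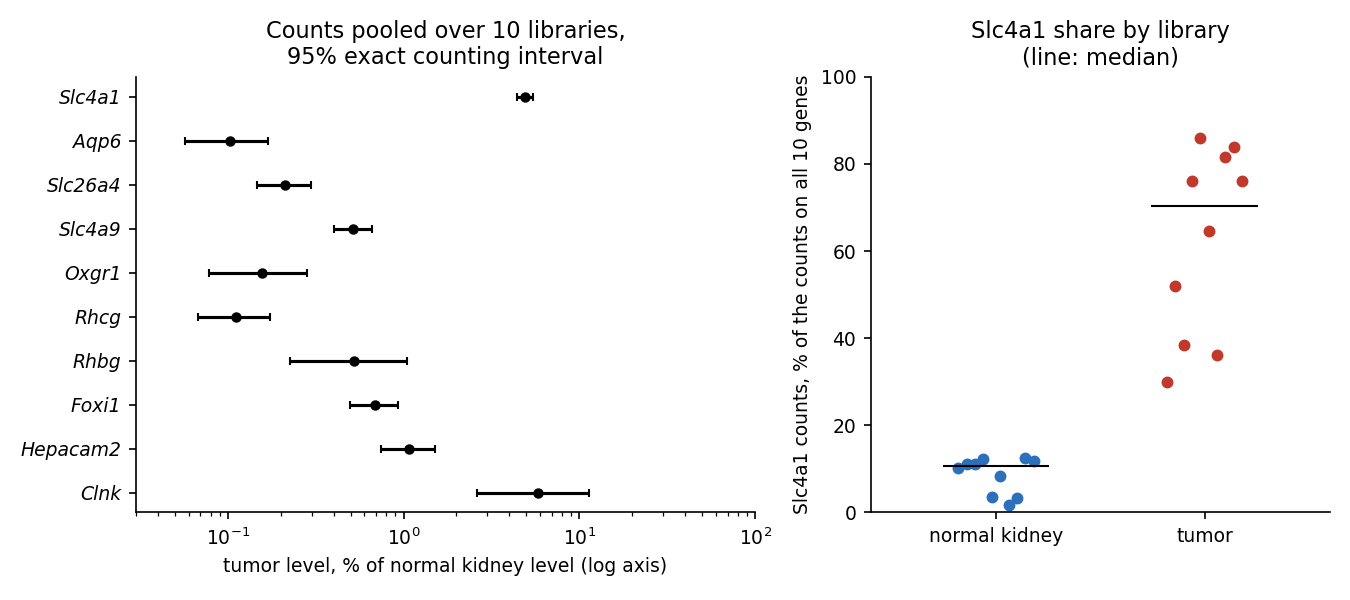
Left, tumor level of each gene as a percent of its normal kidney level, from counts pooled over 10 libraries a group, on a log axis with exact 95% counting intervals. Right, the share of the counts on all 10 genes that fell on Slc4a1, with 1 point per library and a line at the median. Slc4a1 and Clnk lie near 5% of the normal level and the other genes near or below 1%.

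Slc4a1 is also a red cell gene, and most red cell genes did not pass the test. Of 12 such genes 8 were tested, 1 was lower in tumors (the erythroid factor Klf1, log2 fold change -1.73, adjusted p = 2.0e-04) and 7 did not pass. Hbb-bs, which encodes adult beta globin, had a log2 fold change of -0.17 (SE 0.374, adjusted p = 0.726), and Hbb-bt one of -0.42 (SE 0.383, adjusted p = 0.385). Their summed level was 513 to 4476 CPM in tumors and 599.7 to 5929 CPM in normal kidneys. Among tumors the red cell sum was highest in tumor 7, at 4476 CPM, where Slc4a1 was at 1.49 CPM. Slc4a1 was highest in tumors 5, 9 and 8, at 4.37, 3.84 and 3.65 CPM. The red cell sums of these tumors were 1819, 1234 and 1618 CPM, and that of tumor 5 was second to that of tumor 7. What red cells contribute to Slc4a1 in either group was not tested.

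The 10 normal kidneys were not alike. Kidneys 5, 7 and 8 stood apart in Lcn2, a gene that injured tubules switch on, with 2538, 3302 and 1765 CPM, against 232 in kidney 9 and 9.77 to 50.3 in the other 6. Havcr1, which encodes kidney injury molecule 1, was at 163, 1347 and 128 CPM in them. These kidneys are described here with no test, because they were set apart after the values had been seen.

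For 7 of the 10 genes, kidneys 5, 7 and 8 were all below the other 6 kidneys, with kidney 9 left out of the comparison. This held for 6 of the 9 tested genes and for 18.8% of all genes tested, and also for Aqp2 of principal cells, Slc12a1 of the loop of Henle and Slc12a3 of the distal convoluted tubule. Rhcg had 19.2, 5.84 and 31.5 CPM in kidneys 5, 7 and 8, and 99.6 to 146 in the other 6. Slc4a1 was at 10.2, 1.94 and 7.32 CPM, against 36.7 to 82.2. The exceptions were Aqp6, Slc4a9 and Foxi1. In kidney 5 Foxi1 reached 54.7 CPM, its highest level in any library, and Slc4a9 reached 82.2 CPM, its second highest. The ratio of Foxi1 to Rhcg CPM was accordingly 2.85, 2.39 and 0.808 in kidneys 5, 7 and 8, and 0.216 to 0.325 in the other 6. Kidney 7 was the lowest kidney for 7 of the 10 genes.

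Kidney 9 differed in another way. It had the lowest levels of Slc26a4 (6.10 CPM), Slc4a9 (21.4) and Foxi1 (10.5), while Rhcg (90.4 CPM) was just below the 99.6 CPM of the lowest of the other 6, Aqp6 (55.4) was within their range and Clnk (1.26) was among the 3 highest. Slc26a4 was 0.198 of the Slc4a1 level in kidney 9, 26.9 times that level in kidney 7 and 1.43 to 3.41 times in the other 8. The principal cell water channel Aqp2 was at 934 CPM in kidney 9, its highest level, and at 83.4 to 378 CPM in the other 9. Kidney 9 also had the lowest normalization factor, 0.749, of all libraries. Its part in these values was not tested.

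**Figure D3:**
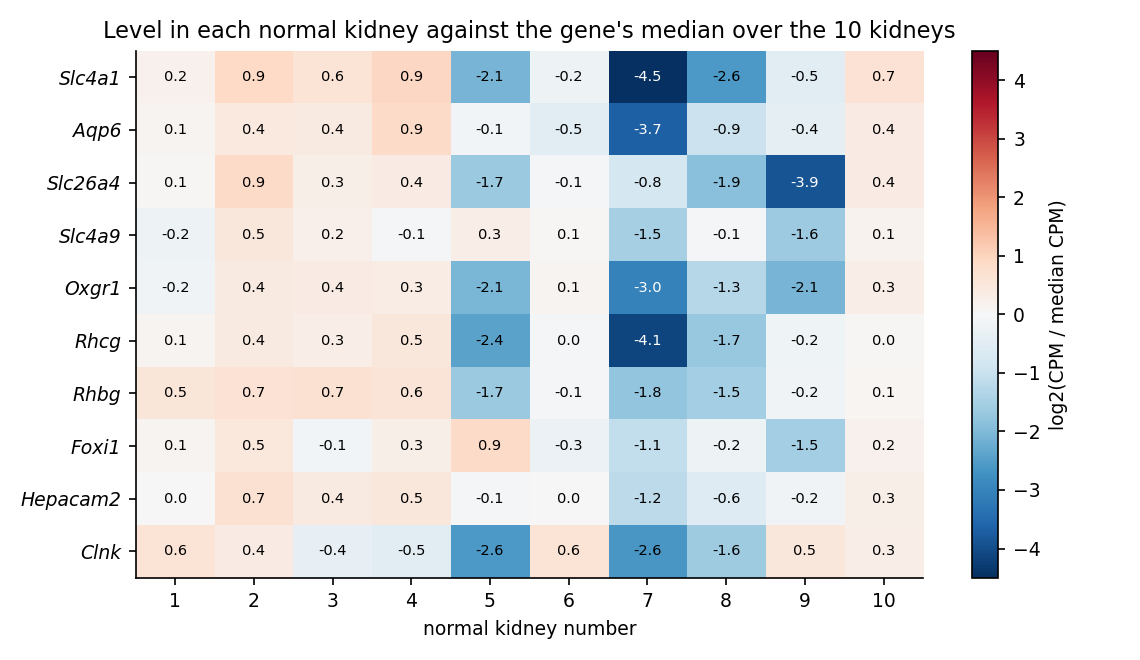
Level of each gene in each of the 10 normal kidneys as log2 of its CPM over the gene's median CPM, with red above and blue below the median and the value written in each cell. Kidneys 5, 7 and 8 are low for most genes but not for Slc4a9 and Foxi1 in kidneys 5 and 8, and kidney 9 is low for Slc26a4, Oxgr1, Slc4a9 and Foxi1.

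Across the normal kidneys many of the genes varied together, but much of this rested on kidney 7. The share of pairs of other genes that would pass was not computed. The counts here and against the segment lists below are therefore not read as particular to the 10 genes. Of the 45 pairs, 21 passed at an adjusted p under 0.05 by Pearson's r in a permutation test (n = 10 kidneys, Benjamini-Hochberg over 45) and 22 by Spearman's rho, and without kidney 7 the count by r was 7. Since kidneys 5, 7 and 8 stood apart, values of r are given within the 7 other kidneys only, where 15 pairs passed by r and 7 by rho in an exact permutation test. These 7 were chosen after the values had been seen, so p-values within them, here and below, only describe these kidneys. They include kidney 9, which was far below the other 6 for Slc26a4 (6.10 CPM against at least 86.4) and Oxgr1 (10.3 CPM against at least 39.5). There Slc4a1 and Aqp6, the type A genes, had r = 0.96 (adjusted p = 0.0223, exact) and rho = 0.93 (adjusted p = 0.0434, exact). With the 2 kidneys farthest from the Slc4a1 median left out, r was 0.84. The type B genes Slc26a4 and Oxgr1 had r = 0.99 (adjusted p = 0.0312, exact permutation) and rho = 0.86 (adjusted p = 0.0595), and r = 0.69 without the 2 farthest kidneys. Rhcg and Rhbg had r = 0.90 (adjusted p = 0.0365, exact permutation) and rho = 0.86 (adjusted p = 0.0595), and r = 0.92 without the 2 farthest. Pairs across the types passed too. Slc4a1 and Slc26a4 had r = 0.78 (adjusted p = 0.0223, exact permutation) and rho = 0.96 (adjusted p = 0.0417). Slc4a1 and Oxgr1 had r = 0.77 (adjusted p = 0.0458, exact permutation). Slc4a1 with Slc4a9, and Aqp6 with each type B gene, did not pass (exact permutation, adjusted p for r 0.0629 to 0.236). Clnk had r from -0.26 to -0.76 to the other 9 genes within the 7 kidneys, of which none passed in the exact permutation test (lowest adjusted p = 0.0836). Over all 10 kidneys its sign was the reverse for 8 of the 9, and its relations to Rhcg, Rhbg and Slc4a1 passed by r (permutation test, adjusted p = 0.012, 0.0169 and 0.0169), so they rest on kidneys 5, 7 and 8.

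The genes were also set against the summed level of the lists of loop of Henle, distal convoluted tubule, principal cell and proximal tubule genes, which gave 40 relations. Of these 25 passed by r over the 10 kidneys and 0 by rho, although 12 had an unadjusted p under 0.05 by rho, and with library totals in place of normalization factors 15 passed by rho. Over the 10 kidneys 37 of the 40 had a positive r. Without kidney 7 the count by r was 2, and it was 16 without kidney 8. Within the 7 kidneys 2 passed by r in an exact permutation test, and both were inverse, unlike most over the 10 kidneys, where loop of Henle and Slc4a1 had a positive relation that passed (permutation test, adjusted p = 0.0448). Within the 7, the loop of Henle sum was lower in kidneys where Slc4a1 (r = -0.96, adjusted p = 0.0278, exact permutation) and Slc26a4 (r = -0.91, adjusted p = 0.0159, exact permutation) were higher, with r = -0.91 and -0.89 without the 2 farthest kidneys. By rho these had adjusted p = 0.164 and 0.111 in the exact permutation test. Umod made up most of the loop of Henle sum, with means of 4743 and 7288 CPM in normal kidneys, and 7909.5 of 10049 CPM in kidney 9. Slc12a1, of the same list, was lowest among the 7 in kidney 9 (805 CPM, against 1198 to 1703 in the other 6). There Slc4a1 was lowest as well, at 30.8 CPM. Relations to single genes of this list were not tested.

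By their ranks over the 10 normal kidneys, the genes outside the lists that were most like the 9 tested genes were Ppp1r26, Msl2, Tox3, Wdr6, Abca13, Stard4, Gm17029, Dst, Slc35f2 and Slc35f1, among 14427 genes with a mean of at least 1 CPM. Their mean Spearman rho to the 9 genes ran from 0.87 for Ppp1r26 to 0.84, over 10 kidneys that share depth and processing, and no p is given. In tumors they split. Abca13, which encodes a large lipid transporter, had 231 ± 149 CPM (SD, n = 10) in normal kidneys and 0.0949 ± 0.111 in tumors, and the nuclear factor Tox3 had 10.3 ± 4.20 and 0.0694 ± 0.0950 CPM. Their log2 fold changes were -11.12 (adjusted p = 2.5e-10) and -7.03 (adjusted p = 1.7e-09). Ppp1r26 also fell (-3.91, adjusted p = 4.3e-07), as did Msl2 (-0.63), Wdr6 (-0.72) and Slc35f2 (-0.90). Stard4 (-0.38), Dst (0.50) and Slc35f1 (-0.46) did not pass, and Gm17029 was not tested.

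The vacuolar proton pump of intercalated cells is built from subunits of which several have a form particular to these cells and a widely expressed counterpart. All 5 genes for the intercalated cell forms were lower in tumors, where the background was 23.8%. Of these, Atp6v1b1, Atp6v1g3 and Atp6v1c2 were too scarce in tumors (means of 0.385, 0.221 and 0.136 CPM) to have passed the filter through them. So was Atp6v0d2, which had 8 and 9 counts in tumors 4 and 5. The count therefore describes the listed genes only. Atp6v1b1, the B1 subunit, had 29.1, 119 and 175 CPM as lowest, median and highest levels in normal kidneys and 0, 0.213 and 1.34 CPM in tumors, with a log2 fold change of -8.00 (SE 0.586, adjusted p = 5.7e-10). Atp6v1g3 (-7.73), Atp6v1c2 (-7.13) and Atp6v0d2 (-4.80) fell without overlap between the groups, and without tumor 7 Atp6v1g3 was at -9.22 and Atp6v0d2 at -5.50. Atp6v0a4, which proximal tubules also express, fell least. It had 216, 330.2 and 412 CPM in normal kidneys and 33.4, 162 and 313 CPM in tumors, with a log2 fold change of -0.97 (SE 0.279, adjusted p = 0.00708) and overlap of the groups.

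The 5 widely expressed counterparts went the other way, against a background of 23.6% of all genes tested that were higher in tumors. Atp6v0a1 had a log2 fold change of 1.84 (SE 0.252, adjusted p = 4.1e-06), with 10 of 10 tumors above every normal kidney. Atp6v0d1 (1.05), Atp6v1c1 (0.99) and Atp6v1g1 (0.98) were also higher. Atp6v1b2, the counterpart of Atp6v1b1, had 289, 321 and 386 CPM in normal kidneys and 279, 442 and 502 CPM in tumors, a log2 fold change of 0.35 (SE 0.109, adjusted p = 0.0119). With library totals instead of normalization factors it was 0.21 and did not pass (adjusted p = 0.116).

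Of 14 further intercalated cell genes 12 were tested, 7 were lower in tumors, 1 was higher and 4 did not pass, with a median log2 fold change of -1.12. The background was 23.8% lower and 23.6% higher. Atp4a, Hmx2, Insrr, Slc26a7 and Dmrt2 were too scarce in tumors (means of 0.0168 to 0.190 CPM) to have passed the filter through them. So was Kcnma1, which had 6 and 2 counts in tumors 3 and 6. The count of lower genes therefore describes the listed genes only. Atp4a, the proton-potassium pump of the stomach that the collecting duct also uses, had 1.97, 59.8 and 86.8 CPM in normal kidneys and was at 0 counts in 9 of 10 tumors. Its log2 fold change was -11.18 (SE 0.851, adjusted p = 1.0e-09), below that of any of the 9 genes, and -12.94 without tumor 1. The homeobox factor Hmx2 (-7.90), the alkali-sensing receptor Insrr (-7.42), the anion transporter Slc26a7 (-6.63) and the factor Dmrt2 (-5.56) also fell with no overlap between the groups. The potassium channel Kcnma1 (-1.37) and the factor Tfcp2l1 (-0.87), which had 123 to 581 CPM in normal kidneys and 113 to 433 CPM in tumors, fell less. Without tumor 7 the log2 fold changes of Hmx2, Slc26a7 and Kcnma1 were -8.93, -7.44 and -1.99, and without tumor 1 that of Insrr was -8.38.

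The remaining genes of this list did not fall past the threshold. Car2, which encodes carbonic anhydrase II, was at 204, 332 and 590.1 CPM in normal kidneys and 261, 321 and 524 CPM in tumors (log2 fold change 0.04, SE 0.171, adjusted p = 0.88), and its sign turned with the scaling. The sodium-driven exchanger Slc4a8 (0.16), the receptor kinase Kit (-0.71, SE 0.364, and -0.95 with a pass without tumor 9) and the proton-sensing receptor Gpr4 (-0.09) did not pass either. The sulfate transporter Slc26a11 was higher in tumors, by 1.26 (SE 0.156, adjusted p = 9.8e-07). Atp12a and Adcy10 did not pass the filter. Atp12a had 0.0365 to 0.849 CPM in normal kidneys and no count in any tumor, and without a filter Adcy10 had a log2 fold change of -2.99.

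**Figure D4:**
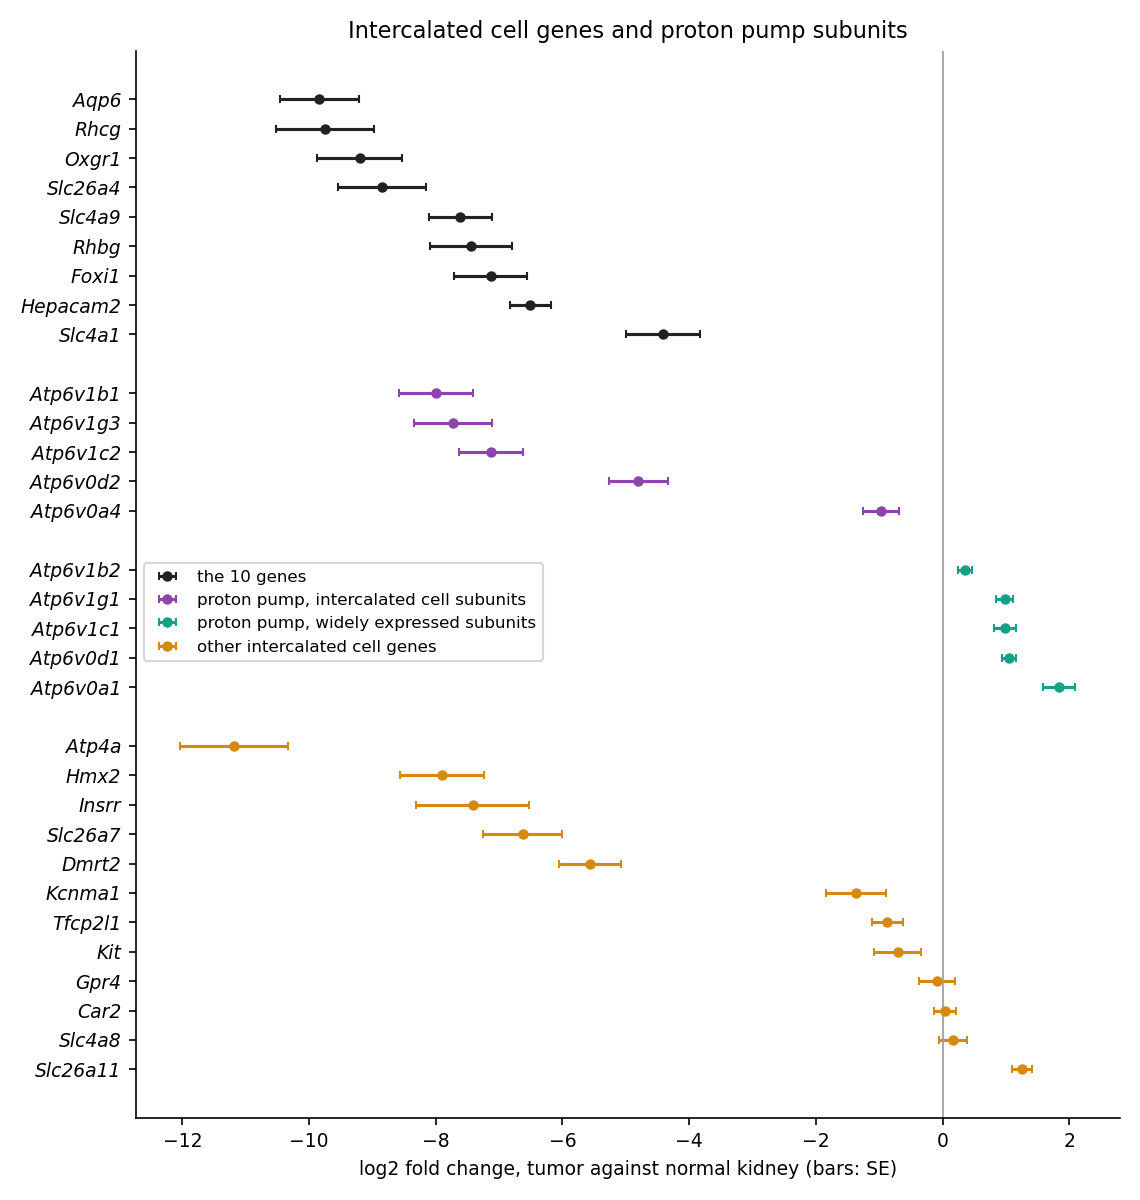
Log2 fold change between tumors and normal kidneys, with bars of 1 standard error, for the 9 tested genes (black), the intercalated cell forms of the proton pump subunits (purple), their widely expressed counterparts (green) and 12 other intercalated cell genes (orange). The 9 genes lie between -9.84 and -4.41, and all 5 widely expressed subunits lie above 0.

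Genes of the neighbouring segments were low in tumors as well, beside 23.8% of all genes tested. Many of them passed the filter only through the normal kidneys, as did Aqp2 (tumor mean 0.0578 CPM) and Slc12a1 (0.421 CPM). Their counts therefore describe the listed genes only. Of 10 principal cell genes 9 were tested and 9 were lower in tumors, with a median log2 fold change of -7.29, and their sum was 401 to 1431 CPM in normal kidneys and 0.990 to 35.8 CPM in tumors. Aqp2 fell by 12.24 on the log2 scale and was at 0 in 7 tumors, and Aqp3 fell by 4.82. Without tumor 7 these log2 fold changes were -13.17 and -6.82. All 7 tested of 8 distal convoluted tubule genes were lower (median -5.11, with Slc12a3 at -9.20 and Pvalb not tested), as were 8 of 8 loop of Henle genes (median -9.32, with Slc12a1 at -11.26 and Umod at -11.87, or -12.59 without tumor 7). Of 8 proximal tubule genes 2 were lower, Slc5a2 (-3.54, adjusted p = 2.3e-05) and Aqp1 (-2.62, adjusted p = 1.1e-05). The other 6 did not pass (median of the 8 -0.37), among them Lrp2 (0.56, adjusted p = 0.275) and Cubn (-0.44, adjusted p = 0.369). Slc34a1 (-1.15, adjusted p = 0.0813) passed without normal kidney 7 or 8 (-1.29 in each, adjusted p = 0.031 and 0.0467). No test set the proximal tubule genes apart from principal cell genes.

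Of 7 urothelial genes 1 was lower and 6 did not pass, a count that rested on tumor 7. Upk1a was at -1.48 (adjusted p = 0.0737) and Upk1b at 0.07 (adjusted p = 0.966). Without tumor 7 all 7 were lower, with Upk1a at -2.65 (adjusted p = 2.5e-04) and Upk1b at -2.46 (adjusted p = 0.0162). Of 8 macrophage genes 5 were higher in tumors, beside 23.6% of all genes tested, and 3 did not pass, with Adgre1 at 1.04 and Csf1r at 0.89. The sum of the 8 was 132 to 488 CPM in normal kidneys and 308 to 1511 CPM in tumors. The part of these cells in the fall of the 10 genes was not tested.

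Regulators of intercalated cell fate were read from a list of 12 genes, of which 6 were lower in tumors, 1 was higher and 5 did not pass. The background was 23.8% lower and 23.6% higher. Grhl2, Gata3 and Elf5 were too scarce in tumors (means of 0.301, 0.352 and 0.123 CPM) to have passed the filter through them. The factors Grhl2 (-5.29, SE 0.645), Gata3 (-5.08, SE 0.705) and Elf5 (-4.35, SE 0.633), which are all genes of the distal nephron or collecting duct, fell most, and without tumor 7 Grhl2 was at -6.55 and Gata3 at -6.10. Hes1, a Notch target that is known to restrain the intercalated cell fate, fell by 1.84 on the log2 scale (SE 0.189, adjusted p = 7.6e-08), and the Notch ligand Jag1 fell by 0.93 (SE 0.342, adjusted p = 0.0305), a call that was lost without normal kidney 4 or 5 or without tumor 2, 3, 4, 6 or 10 (adjusted p up to 0.0585). Adam10, a protease that cuts Notch receptors, was higher by 1.41 (SE 0.167, adjusted p = 5.6e-07). Notch1 (-0.73, adjusted p = 0.0702) and Notch2 (0.24, adjusted p = 0.358) did not pass, although Notch1 did without normal kidney 9 (-0.87, adjusted p = 0.00466) or tumor 7 (-0.96, adjusted p = 0.0123). Pax8, whose promoter drives the Cre of this model, had 91.7, 113 and 197 CPM in normal kidneys and 113, 159.7 and 203 CPM in tumors (0.29, adjusted p = 0.137), and 0.38 with adjusted p = 0.0423 without normal kidney 7.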

How the data were processed

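Tumors and normal kidneys were frozen, powdered and extracted with Trizol, and a sequencing company made poly(A) libraries, sequenced them as read pairs and counted the reads on each gene. These raw counts are what the authors deposited. The genome build mm10 is taken from the submitters' processing notes, while the aligner, the counting tool and the use of strand are not given in the sources used here, so reads on overlapping genes are uncertain. The table holds 0 rows that name no gene and 0 unused columns of per-sample values. No library was a copy of another (lowest chi-square per degree of freedom 12.8 within a group).

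The counts were analysed with edgeR 4.0.16 in R 4.3.3, with TMM factors (0.749 to 1.14), a filter on low counts with a minimum of 10, the quasi-likelihood test on all 20 libraries without a covariate, and Benjamini-Hochberg adjustment over all genes tested. Log2 CPM values used a prior count of 2. Each SE of a log2 fold change was calculated back from the test, as its absolute size over the square root of the F statistic. Permutation tests were two-sided with 100000 resamples (seed 20240), or complete where called exact. Alternatives were other normalizations, no filter, DESeq2 1.42.0, limma-voom (limma 3.58.1) with and without quality weights, same-numbered libraries as blocks, a prior count of 0.5, and each library left out. Leaving out normal kidneys 5, 7 and 8, these with kidney 9, or kidney 9 with tumor 7 was added after the data were seen. P-values measure the spread between these samples.

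The 10 genes and the lists (type A, type B and shared genes, proton pump subunits of intercalated cells and widely expressed ones, other intercalated cell genes, principal cell, distal convoluted tubule, loop of Henle, proximal tubule, urothelium, red cell, mast cell, natural killer cell, macrophage, and regulators of cell fate) were written by hand, with earlier results of these data known. Named were the 10 genes, all genes of the pump lists and of the other intercalated cell list, the first 2 genes of other lists, and the 10 genes most like the tested ones across normal kidneys by mean Spearman rho; other genes of the lists, and Lcn2 and Havcr1, were chosen after their values were seen. A gene of the list of regulators is counted there but not reported by itself here. Promoter sequences came from RefSeq (GRCm38.p6), where 7 of the 10 genes matched. On simulated counts of 15159 genes with 192 changed, the quasi-likelihood test recovered 88.5% of the changed genes (100% of those changed 16-fold), and 3.41% of its calls were false.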

Additional observations from a re-analysis of the deposited data

Results flagged for a closer look

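Of the 20 groups of 10 libraries (10 genes in tumors and in normal kidneys), 3 held a log2 CPM value set apart from its neighbour by more than Dixon's 95% limit on the gap over the range of the group. For values from a normal distribution chance sets apart about 1 in 20 groups. That rate does not hold for Rhcg and Rhbg in tumors, where 6 and 7 of the 10 libraries had 0 counts. Aqp6, the vesicle channel of type A cells, was at 2.56 log2 CPM (5.81 CPM) in normal kidney 7, and the next kidney was at 5.28. The ammonia transporter Rhcg was at -0.27 log2 CPM (0.728 CPM) in tumor 1, where the next tumor was at -2.12. Rhbg, the other ammonia transporter, was at -1.48 log2 CPM (0.258 CPM) in tumor 4, where the next was at -2.67.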

How the results depend on the processing

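The fall of the 9 tested genes kept its direction and stayed past the threshold in all 31 alternatives, with log2 fold changes between -5.33 and -3.97 for Slc4a1 and between -11.14 and -6.39 for the other 8. Aqp6 had the largest fall in some alternatives and Rhcg in others. The count of genes lower in tumors was 9 in each fit that left out 1 library, and 10 without a filter or without normal kidneys 5, 7 and 8, where Clnk was tested. The proton pump genes of intercalated cells stayed at 5, and the other intercalated cell genes ran from 7 to 8 when each library was left out and reached 9 without a filter.

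Upper quartile factors and library totals moved the median of all genes to -0.137 and -0.141 and the share of higher genes among all calls to 39.2% and 38.5%, from 49.8%. Car2 turned to -0.08 under each of them, to -0.03 without normal kidney 5 or tumor 10 and to -0.04 without tumor 2, and fits without 1 library spanned -0.04 to 0.16. Slc4a8 turned to -0.26 with quality weights and to -0.03 without normal kidney 9 and tumor 7, and Gpr4 to 0.07 without normal kidney 9 (fits without 1 library spanned -0.29 to 0.07) and to 0.02 without normal kidneys 5, 7, 8 and 9. None of these passed the threshold. Kit passed with quality weights (-1.58), without tumor 9 (-0.95) and without normal kidneys 5, 7, 8 and 9 (-1.10). Atp6v1b2 did not pass with upper quartile factors (0.23) or library totals (0.21). The causes were not tested.

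The count of pairs of genes related across normal kidneys ran from 7 (without kidney 7) to 28, and that of relations to other segments from 2 (without kidney 7) to 29, with 16 without kidney 8 and 2 without kidneys 5, 7 and 8.

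Tumors and normal kidneys share the numbers 1 to 10, which the sources used here do not tie to a mouse. Same-numbered deviations correlated over 0.1 in 9 of 10 pairs (lowest -0.143, highest 0.377), and 8 of 10 tumors correlated best with the kidney of their own number, a hint of pairing from the data. Because pair 9 fell short of 0.1 and no source ties the numbers to a mouse, the numbers were not taken as pairs. This does not exclude pairing. Group tests without a block treat the libraries as independent, although the samples came from a cohort of 10 mice. With a replicate block 3886 genes were lower and 3979 higher, and the counts of 9, 5 and 7 lower genes did not change. Slc4a1 was at -4.12, with adjusted p = 7.2e-04 by the edgeR test with the block and 2.4e-06 without it. The other 8 tested genes had adjusted p of at most 1.2e-06 with the block. Depth limits single tumors to statements above about 3 counts.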
